A study of Mus musculus with 4 samples.

Results

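The genes described here encode 10 transcription factors that pattern the gut tube and the organs that bud from it: the caudal homeobox factors Cdx1 and Cdx2, the pancreas and duodenum factor Pdx1, the intestinal homeobox factor Isx, the zinc finger factors Gata4 and Gata6, the liver bud factors Hhex and Prox1, and the Krüppel-like factors Klf4 and Klf5. They were chosen by name, and each of the 10 symbols matched 1 of the 21878 rows in the deposited tables. RNA was sequenced from liver progenitor-like cells, cultured cells that adult mouse liver cells give rise to in transition and expansion media. HepLPC (n = 2 libraries) are such cells grown from hepatocytes, and NPC_LPC (n = 2 libraries) are such cells grown from non-parenchymal cells, the liver cells other than hepatocytes. All mice were C57BL/6, with an age of 6 to 8 weeks in the sample labels. The protocol lists tdTomato mice given AAV8-TBG-Cre, a virus whose promoter drives Cre in hepatocytes, for the hepatocyte preparation. It lists AlbCreERT/R26GFP mice, in which the albumin promoter drives an inducible Cre, for the non-parenchymal preparation. Mouse line and virus would then follow the group and cannot be told apart from cell origin. The grouping rests on the titles, since the cell type label of HepLPC names hepatocytes and non-parenchymal cells alike. The labels do not tell whether the replicates are separate animals or cultures, and the p-values measure the spread between these libraries, which may be technical.

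In the embryo, the endoderm forms a tube whose regions are set by combinations of transcription factors. CDX factors act in the hindgut and mark the future intestine, PDX1 acts in the region of the duodenum and pancreas, and HHEX and PROX1 act in the liver bud, where GATA4 and GATA6 are also needed. In the adult intestine, KLF5 is found in dividing crypt cells and KLF4 in differentiating cells, goblet cells among them. The adult liver normally has no intestinal programme, and PROX1 is present in hepatocytes.

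Total counts ran from 17575998 to 20625957 per library, and the floor for genes without counts, 3 counts, equals 0.1485 to 0.169 CPM (counts relative to TMM-scaled library totals). Of 20 genes of mature hepatocytes, 10 had at most 3 counts in every library, and 8, Cyp3a11, Cyp2e1 and Pck1 among them, had none. Summed over the 20 genes, the level was 68.8 and 48.2 CPM in HepLPC, against 6.58 and 3.12 CPM in NPC_LPC. Of 5 hepatocyte genes tested, edgeR called 1 higher and 0 lower and DESeq2 2 higher and 0 lower. Over all tested genes, edgeR called 0.227% higher and 0.203% lower, and DESeq2 5.81% and 6.5%. The edgeR call among the hepatocyte genes was Hpx, the gene of the heme carrier hemopexin. It was at 48.04 and 43.04 CPM in HepLPC, against 2.80 and 1.48 CPM in NPC_LPC (edgeR adjusted p = 0.0413). The part of hepatocyte-like cells in the levels of the 10 genes was not tested. The cholangiocyte and progenitor markers Spp1, Krt19 and Sox9 were at 904 to 3024, 885 to 1434 and 109 to 115 CPM in HepLPC, against 4200 to 8939, 111 to 275 and 81.5 to 256 CPM in NPC_LPC, and Epcam was at 1.75 CPM at most. Of the endothelial markers, Tie1 and Erg had no count and Pecam1 had 1 at most, while Flt4 was at 86.4 to 103 CPM in HepLPC and 94.1 to 107 CPM in NPC_LPC. Among the leukocyte markers Cd3e had no count, and Cd68 was at 13.3 to 21.7 CPM in HepLPC, against 20.3 to 79.7 CPM in NPC_LPC. In bulk RNA, fewer cells that express a gene and less RNA of it in each cell cannot be told apart.

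Cdx2 was the gene of the 10 that rose in HepLPC by edgeR's quasi-likelihood test, and 0 fell. Of the 10 genes, 8 passed the filter on low counts. Pdx1 did so through HepLPC, the group in which it had counts. Over all 12332 tested genes, 0.227% were called higher in HepLPC and 0.203% lower (adjusted p under 0.05). DESeq2 called 3 of the 10 genes higher (Cdx2, Gata6 and Klf5) and 0 lower, against 5.81% and 6.5% of all tested genes. limma-voom called 0 of the 10. At an unadjusted edgeR p under 0.05, 4 of the 8 genes were higher and 0 lower, where 10.4% and 11.5% of all tested genes were. In CPM, 5 of the 8 genes were higher in both HepLPC libraries than in either NPC_LPC library, an arrangement found in 27.9% of all tested genes, and 0 were lower in both, as 28.6% of all tested genes were. The median log2 fold change of the 8 genes was 1.06, or the same with Pdx1 at its lower bound, and that of all tested genes was -0.00298. The genes were chosen with earlier results of these data known, so these counts describe them and support nothing further.

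**Figure D1:**
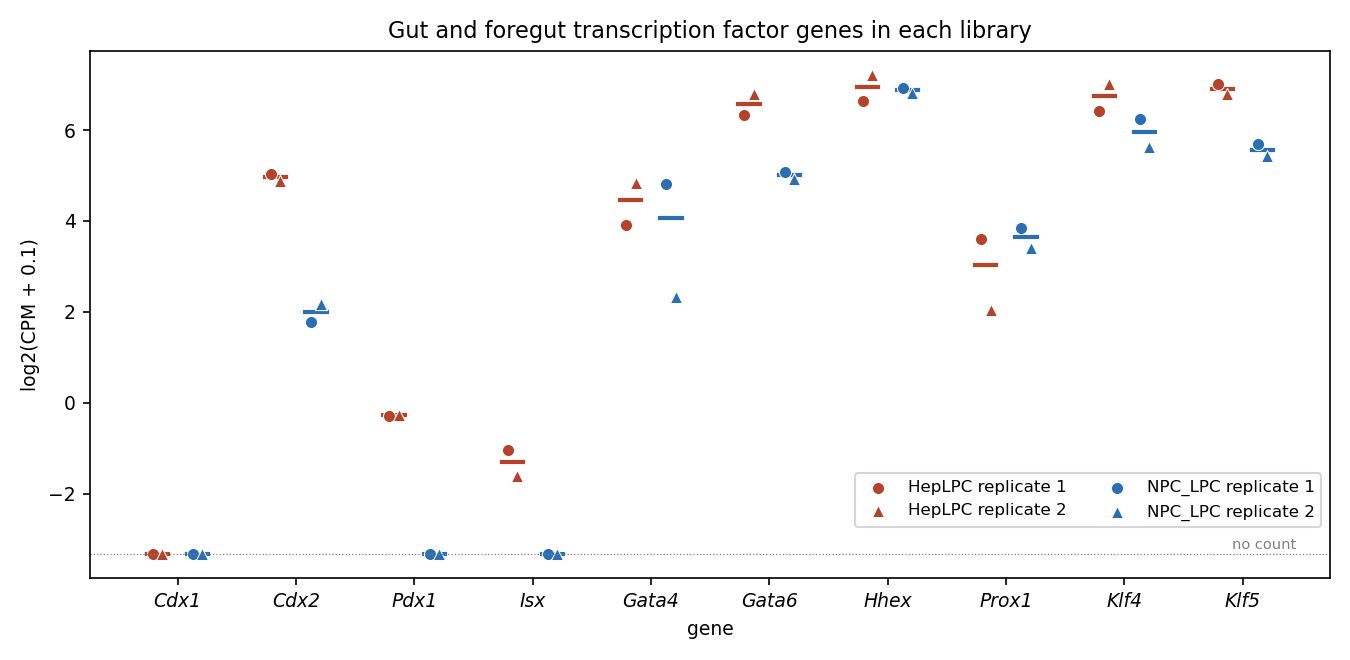
Level of each gene in each library, as log2(CPM + 0.1). HepLPC libraries are red and NPC_LPC libraries blue, circles are replicate 1, triangles replicate 2, and bars the log2 value of the group mean. Cdx2, Gata6, Klf4 and Klf5 were higher in both HepLPC libraries, Cdx1 had no count anywhere, and Pdx1 and Isx had none in NPC_LPC.

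Cdx2 (chromosome 5, 147300900 to 147307249, minus strand) encodes the homeodomain factor that sets intestinal identity. It had 592 and 520 counts in replicates 1 and 2 of HepLPC, against 61 and 89 counts in those of NPC_LPC. In CPM this was 32.9 and 29.3 in HepLPC and 3.35 and 4.41 in NPC_LPC. The groups lay far apart, with replicates close in both. The fold was 8.02 (log2 fold change 3.0, SE 0.35, edgeR adjusted p = 0.0466), and the DESeq2 adjusted p was 5.93e-11. The tested genes of chromosome 5 had a median log2 fold change of 0.14. The edgeR call was close to its threshold. It was lost without HepLPC replicate 1 (adjusted p = 0.161), without HepLPC replicate 2 (0.184) and without NPC_LPC replicate 2 (0.0526), and was made without NPC_LPC replicate 1 (0.0387). With all libraries, it was also lost under limma-voom (adjusted p = 0.0668), limma on log2(FPKM + 1) without a filter (0.131) and edgeR with the replicate number as a block (0.0513). The log2 fold change without 1 library ran from 2.84 to 3.21. Per length, Cdx2 was at 13.9 and 13.5 FPKM in HepLPC, above 74.6% of the 15568 genes with an FPKM above 0 in any library, and at 1.51 and 1.96 FPKM in NPC_LPC, above 39.0% of them.

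Cdx1, the paralogue of Cdx2 in the hindgut and intestine (chromosome 18, 61018862 to 61036199), had no count in any of the 4 libraries. A count of 0 allows a level of up to 0.1666 and 0.169 CPM in replicates 1 and 2 of HepLPC and 0.1646 and 0.1485 CPM in those of NPC_LPC. These limits cover counting error. Cdx4, the remaining caudal gene, also had no count.

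Pdx1 lies beside Cdx2 on chromosome 5 (147270097 to 147275848, plus strand), with 25.1 kb between the genes, and both belong with Gsx1 to the ParaHox cluster, an ancient sister of the Hox clusters. Pdx1 had 13 and 13 counts in replicates 1 and 2 of HepLPC (0.722 and 0.732 CPM) and no count in either NPC_LPC library. Set against 3 counts per NPC_LPC library it was at least 4.64-fold higher in HepLPC, and it did not pass the edgeR test (adjusted p = 0.125) or DESeq2 (0.124). GENCODE M21 annotates Plut, a non-coding gene on the opposite strand, over 1563 bases of Pdx1. Whether counting used strand is not given in the sources used here, so reads of Pdx1 and Plut cannot be told apart. Within 150 kb on either side of the Pdx1 and Cdx2 pair, Gsx1 had 0 and 1 counts in HepLPC and none in NPC_LPC, Urad had none, and Flt3 had at most 2. The ubiquitously expressed Pan3 was at 59.3 and 43.8 CPM in HepLPC and 44.9 and 50.04 CPM in NPC_LPC. Its log2 fold change was 0.12 (SE 0.27, edgeR adjusted p = 0.827). Pan3, the nearest tested neighbour other than Pdx1, overlapped between the groups. Whether the region as a whole differed between the groups was not tested.

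The start regions of Cdx2 and Pdx1 are shown because these neighbours were the homeobox genes with counts that separated the groups fully and passed the filter. Each window runs from 250 bases before the start to 50 bases after it (RefSeq, GRCm38.p6). That of Cdx2 is chr5:147307200-147307499 on the minus strand, and that of Pdx1 is chr5:147269847-147270146 on the plus strand. Both are printed 5′ to 3′ along the gene. Capitals mark matches, on either strand, to the core motifs ATAAA of CDX factors, GATAA of GATA factors, CACCC of KLF factors and TGTTTAC of FOXA factors. No capitals overlap another motif.
Cdx2: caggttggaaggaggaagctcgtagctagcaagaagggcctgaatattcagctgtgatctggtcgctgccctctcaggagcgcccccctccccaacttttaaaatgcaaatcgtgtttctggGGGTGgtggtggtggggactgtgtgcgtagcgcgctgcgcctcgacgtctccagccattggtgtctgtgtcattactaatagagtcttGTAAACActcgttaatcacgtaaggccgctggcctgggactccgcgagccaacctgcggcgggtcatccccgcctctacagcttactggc
Pdx1: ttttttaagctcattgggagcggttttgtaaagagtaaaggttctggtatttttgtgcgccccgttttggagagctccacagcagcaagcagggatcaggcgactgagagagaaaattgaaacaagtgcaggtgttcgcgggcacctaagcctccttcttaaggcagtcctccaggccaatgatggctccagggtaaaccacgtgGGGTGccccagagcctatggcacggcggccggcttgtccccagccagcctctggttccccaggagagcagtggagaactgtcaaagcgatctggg

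The Cdx2 window held a FOXA core on the other strand at positions 211 to 217, counted from 1 at its 5′ end, a motif found in 3.65% of 32851 RefSeq promoter windows of the same length. It also held a KLF core at position 123, and the Pdx1 window held one at position 206. The KLF core is common, with a match in 57.5% of the windows. Neither window matched the GATA core, which 25.4% of windows hold, or the CDX core, which 40.0% hold. A match is a description of these letters and not a bound site. The windows had a GC content of 57.3% for Cdx2 and 55.3% for Pdx1, against a median of 52.7% over all windows, and 18 and 11 CG dinucleotides, against a median of 7.

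Isx (chromosome 8, 74873174 to 74893506), an intestine-specific homeobox gene that in mice represses the carotenoid-cleaving enzyme gene Bco1, had 7 and 4 counts in replicates 1 and 2 of HepLPC and none in NPC_LPC. Set against 3 counts per NPC_LPC library it was at least 1.96-fold higher in HepLPC, and it was too low for the main test. With every gene that had a count kept in the test, its edgeR adjusted p was 0.295. The Isx level rests on 11 counts in all, and its FPKM had the opposite order, with 0.0374 in HepLPC replicate 1 and 0.0789 in replicate 2. Pdx1, with equal counts in both HepLPC libraries, was at 0.287 and 0.497 FPKM. The cause of this difference between counts and FPKM was not tested.

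Gata6 and Klf5 were the genes next to the threshold. Gata6 (chromosome 18, 11052510 to 11085636), a zinc finger factor of endoderm, liver bud and gut, had 1445 and 1958 counts in replicates 1 and 2 of HepLPC, against 613 and 612 counts in those of NPC_LPC. That was 80.3 and 110.3 CPM in HepLPC and 33.6 and 30.3 CPM in NPC_LPC, so both HepLPC libraries were above both NPC_LPC libraries. The fold was 2.98 (log2 fold change 1.58, SE 0.27). Gata6 did not pass the edgeR test (adjusted p = 0.074). DESeq2 called it (6.76e-05), as did edgeR with every gene that had a count kept (0.0243). Leaving out 1 library at a time, its log2 fold change stayed between 1.33 and 1.80, and the edgeR adjusted p lay between 0.101 and 0.206. The median log2 fold change of chromosome 18 was -0.02. GENCODE M21 annotates 1010001N08Rik on the opposite strand over 504 bases at the start of Gata6, so part of the reads there cannot be assigned to a strand.

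Gata4 (chromosome 14, 63198914 to 63271712) marks the proximal small intestine in the mouse gut. It is also active in the heart, in stellate cells and in mesothelium. Here it varied more between the replicates of each group than between the group means. It was at 14.9 and 28.6 CPM in replicates 1 and 2 of HepLPC, against 28.1 and 4.90 CPM in those of NPC_LPC. The highest library of each group nearly matched, and the groups overlapped. The log2 fold change was 0.40 with an SE of 0.81 (edgeR adjusted p = 0.805), and it was -0.37 without NPC_LPC replicate 2, -0.14 without HepLPC replicate 2 and 2.17 without NPC_LPC replicate 1. After adding 0.5 CPM, the NPC_LPC replicates differed 5.30-fold in Gata4, and 1.73% of the 10268 tested genes with a mean of at least 5 CPM had as large a replicate difference there. Of the markers of mesothelium, the lining of the liver surface, the most abundant, Msln and Upk1b, followed the same split of the libraries. Msln, the gene of mesothelin, was at 198 and 785 CPM in replicates 1 and 2 of HepLPC, against 573 and 231 CPM in those of NPC_LPC. Upk1b was at 3.05 and 33.9 CPM in HepLPC, against 33.2 and 0.396 CPM in NPC_LPC, again with HepLPC replicate 2 and NPC_LPC replicate 1 high. The 6 mesothelial markers summed to 202 and 822 CPM in HepLPC and to 613 and 232 CPM in NPC_LPC. Most of this was Msln, while Wt1, Upk3b, Lrrn4 and Gpm6a stayed at or below 5.10 CPM. Wt1 and Gpm6a were also highest in HepLPC replicate 2 and NPC_LPC replicate 1, and Upk3b and Lrrn4 were not. Upk3b was at 0.833 and 2.70 CPM in HepLPC, against 0.329 and 0 CPM in NPC_LPC. Lrrn4 was at 0.111 and 0.169 CPM in HepLPC, against 0.0549 and 0 CPM in NPC_LPC. The 8 stellate cell markers summed to 10.9 and 7.89 CPM in HepLPC and to 3.13 and 2.08 CPM in NPC_LPC, with Lrat and Hand2 without a count. Reln made up most of the HepLPC sum, at 8.78 and 5.41 CPM in HepLPC, against 0.494 and 1.14 CPM in NPC_LPC (edgeR adjusted p = 0.0947, DESeq2 0.00187). The part of other cell types in the Gata4 levels was not tested.

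**Figure D2:**
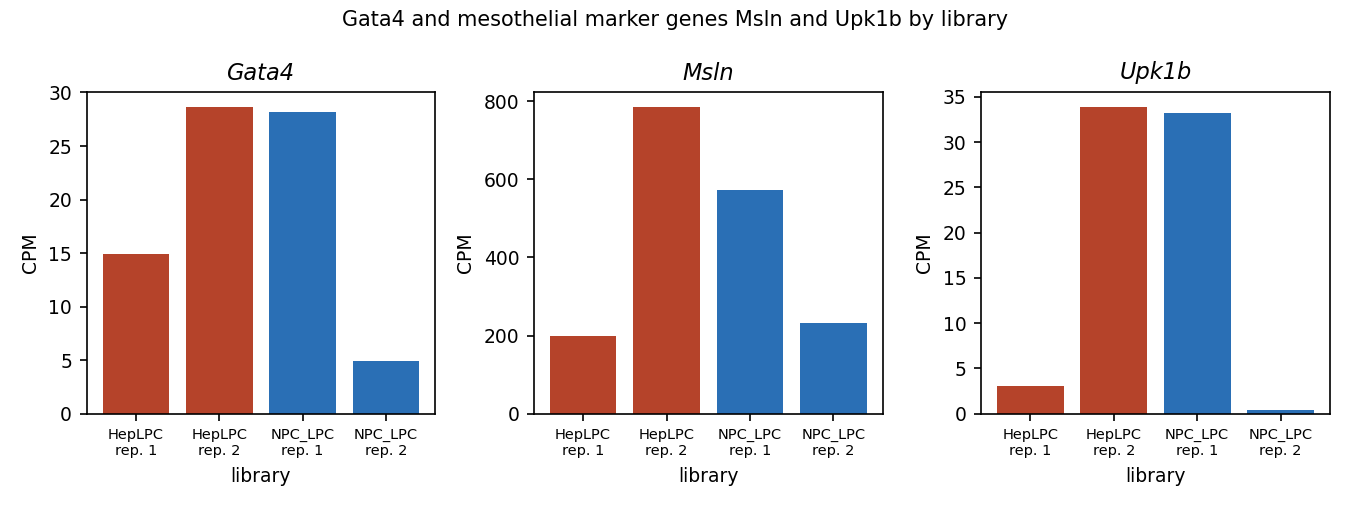
CPM of Gata4 and of the mesothelial marker genes Msln and Upk1b in each library, with HepLPC in red and NPC_LPC in blue and 1 bar per library. In all 3 genes HepLPC replicate 2 and NPC_LPC replicate 1 were the high libraries, as with Gata4 at 28.6 and 28.1 CPM.

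Klf5 (chromosome 14, 99298691 to 99313412), a zinc finger factor of dividing intestinal crypt cells, had 2341 and 1952 counts in replicates 1 and 2 of HepLPC, against 943 and 870 counts in those of NPC_LPC. That was 130.0 and 110.0 CPM in HepLPC and 51.7 and 43.1 CPM in NPC_LPC, and the groups did not overlap. The fold was 2.53 (log2 fold change 1.34, SE 0.24). Klf5 did not pass the edgeR test (adjusted p = 0.0773), while DESeq2 called it (3.04e-04), as did edgeR with every gene that had a count kept (0.0325). Without 1 library, the log2 fold change ran from 1.21 to 1.5 and the adjusted p from 0.109 to 0.219. The 409 tested genes on chromosome 14 had a median log2 fold change of -0.42, so Klf5 lay 1.76 above its chromosome and Gata4, on the same chromosome, 0.82 above it.

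Klf4 (chromosome 4, 55527137 to 55532475), a factor of differentiating gut epithelium and one of the factors used to reprogramme cells, had 1549 and 2274 counts in replicates 1 and 2 of HepLPC, against 1373 and 998 counts in those of NPC_LPC. It was at 86.03 and 128 CPM in HepLPC, against 75.3 and 49.4 CPM in NPC_LPC. HepLPC replicate 1 was close to NPC_LPC replicate 1, though the groups did not overlap. The log2 fold change of 0.78 (SE 0.33) did not pass the edgeR test (adjusted p = 0.242) or DESeq2 (0.184). The 761 tested genes of chromosome 4 had a median log2 fold change of -0.61, and Klf4 lay 1.39 above it. Klf4 is also an early response gene in many cells. The 18 immediate early genes examined, which react within minutes to serum and handling, summed to 2724 and 3549 CPM in HepLPC and to 1101 and 2399 CPM in NPC_LPC, where Cyr61 alone gave 1110.2 CPM in replicate 2. Of the 18, 17 had a log2 fold change above 0, with a median of 1.46. Both edgeR calls, Zfp36 and Atf3, were higher in HepLPC, and DESeq2 called 11 higher and 0 lower. Over all tested genes, edgeR called 0.227% higher and 0.203% lower, and DESeq2 5.81% and 6.5%. The part of the immediate early response in the Klf4 level was not tested. Of the 12 tested genes among the 15 other KLF genes, edgeR, DESeq2 and limma-voom called 0, and edgeR gave an unadjusted p under 0.05 to 0. The median log2 fold change of those 12 genes was 0.11. The most abundant of them was Klf6, with 508 and 314 CPM in HepLPC, against 344 and 399.8 CPM in NPC_LPC. Klf3 came next, with 246 and 198 CPM in HepLPC, against 228 and 184 CPM in NPC_LPC. Klf6 and Klf3 overlapped between the groups.

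Hhex (chromosome 19, 37434841 to 37440731), a homeobox gene needed for the liver bud, was abundant in both kinds of culture. It had 1785 and 2640 counts in replicates 1 and 2 of HepLPC, against 2211 and 2290 counts in those of NPC_LPC, or 99.1 and 149 CPM in HepLPC and 121 and 113 CPM in NPC_LPC. Both NPC_LPC libraries lay between the HepLPC libraries. The log2 fold change was 0.08 (SE 0.28, edgeR adjusted p = 0.894), and it was -0.24 without HepLPC replicate 2 and 0.36 without HepLPC replicate 1. Per length, Hhex was above 93.6% of detected genes in HepLPC and above 94.1% in NPC_LPC. Hhex is also a gene of endothelial and blood precursors. Of the 11 endothelial markers, Pecam1, Tie1 and Erg were at 1 count or 0 in all libraries, Flt4 had the levels given above, and Kdr was at 6.78 and 5.46 CPM in HepLPC, against 1.86 and 3.07 CPM in NPC_LPC. The 11 markers summed to 93.8 and 109 CPM in HepLPC and to 100.1 and 112 CPM in NPC_LPC, and their part in the Hhex level was not tested.

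Prox1 (chromosome 1, 190118035 to 190170827), a homeobox gene of hepatoblasts and hepatocytes and of lymphatic endothelium, had the 1 negative fold change of the 8 genes. It was at 12.1 and 3.999 CPM in replicates 1 and 2 of HepLPC, against 14.2 and 10.5 CPM in those of NPC_LPC. HepLPC replicate 2 stood apart, at 71 counts where the other libraries had 213 to 259. The log2 fold change of -0.62 (SE 0.59) did not pass the edgeR test (adjusted p = 0.569) or DESeq2 (0.627), and it was -0.04 without HepLPC replicate 2 and -1.62 without HepLPC replicate 1. After adding 0.5 CPM, the HepLPC replicates differed 2.79-fold, and 3.29% of the 10268 genes had as large a difference there. The lymphatic marker genes Lyve1 and Pdpn were at 0.1666 CPM at most in HepLPC and 3.73 CPM at most in NPC_LPC, where that value belonged to Pdpn in replicate 1. The vascular growth factor receptor Flt4, also a lymphatic gene, was at 86.4 and 103 CPM in HepLPC and 94.1 and 107 CPM in NPC_LPC. The part of lymphatic cells in the Prox1 level was not tested. Prox1os and Gm28172, on the opposite strand, overlap 419 and 964 bases of Prox1 in GENCODE M21.

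**Figure D3:**
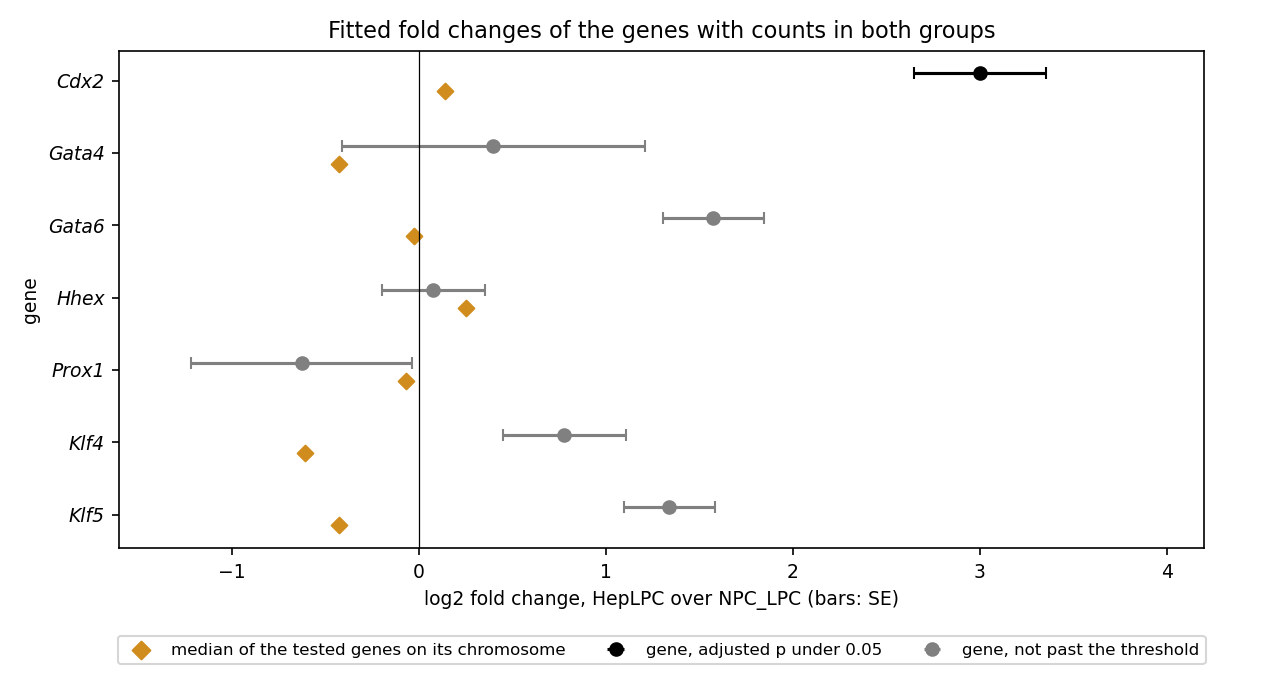
Fitted log2 fold change, HepLPC over NPC_LPC, of the 7 genes with counts in both groups, with bars for the SE, black for adjusted p under 0.05 and grey otherwise. Diamonds show the median log2 fold change of the tested genes on the same chromosome. Cdx2 stood at 3.0, Gata6 at 1.58 and Klf5 at 1.34, while the SE bars of Gata4 and Hhex crossed 0.

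Compared per length, Hhex and Klf5 had the highest mean levels in both groups, and Gata6 and Klf4, like Cdx2 and Gata4, stood in a different order by their means. In HepLPC the mean FPKM was 62.5 ± 20.0 for Hhex and 51.6 ± 6.87 for Klf5 (SD, n = 2), whose libraries overlapped. Gata6 at 28.7 ± 8.15 FPKM and Klf4 at 28.1 ± 8.56 FPKM came next and overlapped with each other. Cdx2 followed at 13.7 ± 0.306 FPKM, separate from Klf4 above it and from Gata4 below it. Gata4 was at 5.80 ± 2.59 FPKM, Prox1 at 0.657 ± 0.446 FPKM and Pdx1 at 0.392 ± 0.148 FPKM, and the libraries of Prox1 and Pdx1 overlapped. In NPC_LPC, Hhex at 58.9 ± 2.83 FPKM stood above Klf5 at 19.7 ± 2.38 FPKM and Klf4 at 16.2 ± 4.78 FPKM, which overlapped. Gata6 followed at 9.80 ± 0.581 FPKM. Gata4 at 4.32 ± 4.41 FPKM and Cdx2 at 1.74 ± 0.318 FPKM overlapped, since Gata4 was above Cdx2 in replicate 1 and below it in replicate 2, and Prox1 was at 0.994 ± 0.194 FPKM. Cdx1 was listed at 0 in all libraries, and Pdx1 and Isx were listed at 0 in NPC_LPC.

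Genes of the intestinal epithelium, among them genes that CDX2 is known to activate, ranged from silent to abundant, with a few higher in HepLPC. Of 30 such genes, 15 had at most 3 counts in every library. Sis, Tff3, Guca2b, Apoa4, Mep1b and Slc5a1 were among those with no count anywhere, and Lct, Muc2 and Fabp2 stayed at or below 0.507 CPM. Of the 11 genes tested, 2 rose in HepLPC and 0 fell by edgeR, with 5 higher and 0 lower at an unadjusted p under 0.05. DESeq2 called 5 higher and 0 lower, and limma-voom 0. Over all tested genes, edgeR called 0.227% higher and 0.203% lower, and DESeq2 5.81% and 6.5%. At an unadjusted edgeR p under 0.05 the shares were 10.4% and 11.5%. Their median log2 fold change was 2.32. Bco1 was at 30.4 and 33.7 CPM in HepLPC, against 1.15 and 1.73 CPM in NPC_LPC. Its log2 fold change was 4.46 (SE 0.41, edgeR adjusted p = 0.0413). The brush border cadherin gene Cdhr5 was at 28.3 and 13.6 CPM in HepLPC and had no count in NPC_LPC, so it passed the filter through HepLPC. Cdh17 and Vil1, known targets of CDX2 in intestinal cells, did not pass the test. Cdh17 was at 15.7 and 6.76 CPM in HepLPC, against 0.384 and 13.7 CPM in NPC_LPC (edgeR adjusted p = 0.798), and Vil1 was at 18.3 and 10.6 CPM in HepLPC, against 0.1097 and 4.16 CPM in NPC_LPC (0.279). In both genes NPC_LPC replicate 2 was far above replicate 1. Krt20, a keratin of differentiated gut epithelium and the most abundant gene of the list, was at 196 and 227 CPM in HepLPC, against 83.3 and 30.4 CPM in NPC_LPC, and did not pass edgeR (adjusted p = 0.119) but did pass DESeq2 (0.00227). The galectin gene Lgals4 was at 29.4 and 11.7 CPM in HepLPC, against 2.08 and 1.53 CPM in NPC_LPC (edgeR adjusted p = 0.074). The stem cell gene Lgr5 overlapped between the groups, with 38.4 and 7.38 CPM in HepLPC, against 19.97 and 2.43 CPM in NPC_LPC (edgeR adjusted p = 0.617). Cdh17, Vil1, Krt20, Lgals4 and Lgr5 were named after their values were seen.

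Most of the stomach and pancreas genes, which lie downstream of foregut factors, were at or below the floor of 3 counts. Slc2a2, Cela1, Atp4a and Anxa10 were above it in at least 1 library. Of 22, 18 had at most 3 counts in every library and 16 had none, Ins1, Ins2, Gcg, Cpa1, Gkn1 and Muc6 included. The gene tested, Slc2a2, was at 0.555 and 1.52 CPM in HepLPC, against 0.329 and 2.08 CPM in NPC_LPC (edgeR adjusted p = 0.929).

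Among 34 other regulators of gut and endoderm, 17 were tested and edgeR called 0. At an unadjusted p under 0.05 there were 6 higher and 2 lower, DESeq2 called 6 higher and 1 lower, and limma-voom 0. The shares over all tested genes were 10.4% and 11.5% at that unadjusted p, and 5.81% and 6.5% by DESeq2. For the 17 tested, the median log2 fold change was 0.87. Hnf4a, a partner of CDX2 in intestinal cells and a hepatocyte regulator, was at 235 and 249 CPM in HepLPC, against 27.4 and 49.8 CPM in NPC_LPC. Its log2 fold change was 2.65 (SE 0.35, edgeR adjusted p = 0.057). The hindgut genes Hoxa13 and Hoxd13, the stomach gene Barx1, the lung and thyroid gene Nkx2-1 and the pancreatic genes Ptf1a and Neurog3 had no count. Nkx6-1, also a pancreatic gene, did have counts and passed the filter through HepLPC. It was at 2.72 and 8.96 CPM in HepLPC, against 0 and 0.148 CPM in NPC_LPC (edgeR adjusted p = 0.0885, DESeq2 1.04e-04). Of the 6 other GATA and FOG genes (FOG proteins are GATA cofactors), 5 were tested and edgeR called 0. Of these, 4 were higher and 0 lower at an unadjusted p under 0.05, DESeq2 called 3 higher and 0 lower, and limma-voom 0. The shares over all tested genes are those given above. Zfpm1, the gene of FOG1, was at 78.3 and 110.2 CPM in HepLPC, against 45.5 and 43.8 CPM in NPC_LPC. Its log2 fold change was 1.08 (SE 0.27, edgeR adjusted p = 0.113). Zfpm2, the gene of FOG2, was at 63.4 and 40.8 CPM in HepLPC, against 51.5 and 34.005 CPM in NPC_LPC (edgeR adjusted p = 0.661). Gata5, which passed the filter through HepLPC, was at 3.94 and 6.08 CPM there, against 0 and 0.099 CPM in NPC_LPC (edgeR adjusted p = 0.074, DESeq2 6.22e-05). Gata2 was at 15.9 and 50.6 CPM in HepLPC, against 7.02 and 2.52 CPM in NPC_LPC (edgeR adjusted p = 0.126, DESeq2 0.00162).

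**Figure D4:**
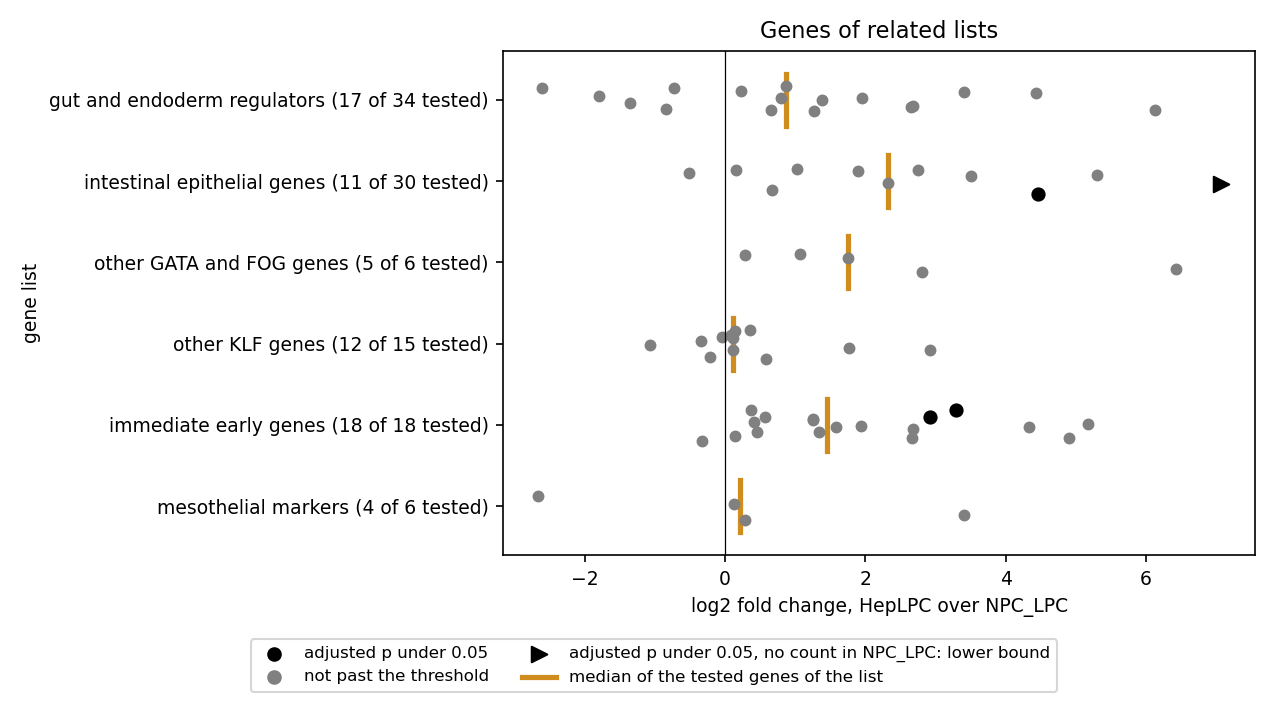
Log2 fold change, HepLPC over NPC_LPC, of the tested genes in 6 related lists, 1 point per gene, black where the edgeR adjusted p was under 0.05, with orange lines for the list medians. The triangle is Cdhr5, which had no count in NPC_LPC and is drawn at its lower bound. The 12 tested KLF genes gathered around a median of 0.11, and the 11 intestinal genes had a median of 2.32.

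The genes whose pattern over the 4 libraries was nearest to that of Cdx2 came from different functions and chromosomes. Likeness was measured as the Euclidean distance between centred values of log2(CPM + 0.5), over 10072 other tested genes with a mean of at least 5 CPM, predicted Gm and Rik genes left out. The nearest was Lpl, the lipoprotein lipase gene, at a distance of 0.256, with 12.3 and 9.29 CPM in replicates 1 and 2 of HepLPC and 1.04 and 1.53 CPM in those of NPC_LPC. Rbp4, the plasma retinol carrier, followed at 0.323. Atf3, a stress-induced factor, was at 0.350 and the interleukin-22 receptor gene Il22ra1 at 0.352. With 4 libraries in 2 groups such a distance mostly reflects the size of the group difference.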

How the data were processed

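RNA from 4 libraries was measured, 2 HepLPC and 2 NPC_LPC, grouped by title. The submitters' processing notes name the build mm10 and, as tools, HISAT2, HTSeq, Cufflinks, Trimmomatic and DESeq. No version, annotation or strand setting is given in the sources used here. Per the file headers, the authors deposited a read count and an FPKM value (fragments scaled by transcript length and library size) per gene symbol. Counts were tested with edgeR 4.0.16 in R 4.3.3 (quasi-likelihood test) after TMM scaling and filterByExpr (minimum count 10), with group as the only term. P-values are two-sided and Benjamini-Hochberg adjusted over all 12332 tested genes, with 0.05 as the threshold, and SEs come from the F statistic. Total counts of 17575998 to 20625957 set a floor of 3 counts, which covers counting error, since reads without molecular identifiers are not independent molecules. An exact permutation test of 2 libraries against 2 cannot go below p = 0.333 and was not run.

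FPKM was used for the order of levels between genes and in alternatives with limma 3.58.1. DESeq2 1.42.0, limma-voom, other scalings and filters, a replicate block, a threshold of 0.01 and leaving out each library were further alternatives. The members, lists and tests were chosen with earlier results of these data known. Named beside the members were, per list, up to 3 genes past the test or otherwise the 2 most abundant, and the 5 genes nearest to Cdx2. Some genes that this rule takes are not reported here. Others, such as marker genes, were named after their values were seen. Positions and promoters come from RefSeq (GRCm38.p6, the assembly called mm10) and matched 97.4% of symbols. The promoter table matched 6 of the 10 members.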

Additional observations from a re-analysis of the deposited data

How the results depend on the processing

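Depth limits Pdx1 and Isx, which had at most 13 counts in a library, and Cdx1, which had none. The edgeR test called 53 genes over all genes and 1 of the 10 members, Cdx2. With every gene that had a count kept it called 593 genes and 3 members, DESeq2 1517 and 3, and limma-voom 5 and 0. limma on log2(FPKM + 1) called 111 genes and 1 member with a mean FPKM of at least 0.5, and 0 and 0 without that filter, where 2820 genes had an unadjusted p under 0.05. At a threshold of 0.01, edgeR called 0 genes and 0 members. Leaving out 1 library gave 0 to 377 genes and 0 to 1 members. With 1 library left in a group, that library is assumed to vary like the other group. Size factors of DESeq2, library totals alone and a minimum of 1 CPM in 2 libraries called Cdx2 alone among the members. The signs of Cdx2, Pdx1, Gata6, Klf4, Klf5 and Prox1 held in every alternative that gave them a value. That of Gata4 reversed without HepLPC replicate 2 (-0.143) and without NPC_LPC replicate 2 (-0.37), and that of Hhex without HepLPC replicate 2 (-0.243); without 1 library their log2 fold changes reached 2.17 for Gata4 and 0.355 for Hhex. Against the median of chromosome 19, Hhex was at -0.18. The cause of these changes was not tested.

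With the replicate number as a block, edgeR called 136 genes and 0 members, and the adjusted p of Cdx2 was 0.0513. The labels do not say that the numbers pair libraries. The replicate differences of the groups had a correlation of -0.0169 across 12332 genes. That value cannot show whether libraries of the same number share an animal, a day or a batch.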
